A study of Homo sapiens with 9 samples.

Results

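MHC class I molecules display peptides from inside the cell to cytotoxic T cells and natural killer (NK) cells, and the genes described here encode the parts of that machinery. They were chosen by symbol: 4 class I heavy chains (HLA-B, HLA-C, HLA-E and HLA-F), the light chain B2M, the peptide transporter subunits TAP1 and TAP2, tapasin (TAPBP) and the transactivator NLRC5. These are 9 of the 60671 genes in the count files, and each of the 9 passed the filter on low counts. RNA was sequenced from H295R cells, which are human and stem from a carcinoma of the adrenal cortex, the gland layer that makes steroid hormones. The study set cells with altered SGPL1, which encodes the enzyme that breaks down sphingosine-1-phosphate, against the unaltered line.

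The groups were 3 libraries labelled SGPL1 KO (knockout), 3 labelled SGPL1 OE (overexpression) and 3 labelled WT (wild type), all from untreated H295R cells grown in 1 medium. The 3 libraries of each group are described as biological replicates. Nothing says that they came from separate cultures or clones, so p-values here measure only library-to-library spread, which may be technical. The sources used here do not give the kind of edit in the KO cells, the number of clones or the overexpression construct.

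Background on the pathway helps in reading the values. Peptides cut by the proteasome enter the endoplasmic reticulum through the TAP1-TAP2 transporter, tapasin holds empty heavy chains and B2M beside it, and filled complexes go to the cell surface. HLA-B and HLA-C are classical heavy chains that present varied peptides, while HLA-E mostly presents leader peptides of other class I chains to the NK receptor pair CD94-NKG2A. NLRC5 binds class I promoters together with the RFX, CREB/ATF and NF-Y factors, and interferons raise much of the pathway in many cell types.

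The start regions of 4 of the genes are shown, with letter matches to sequence elements linked to these regulators. They are those of HLA-B and B2M for the chains, and of TAP2 and TAPBP, whose counts went opposite ways in the libraries labelled OE. RefSeq held a window from 250 bases before to 50 bases after the start for 7 of the 9 genes, on GRCh38.p14; for HLA-E and NLRC5 no sequence is shown. Capitals mark matches on either strand to the interferon-stimulated response element (TTTC, any 2 bases, TTTC), the NF-kappa-B consensus, the X2-like element TGACG or the Y box CCAAT. The windows are chr6:31357130-31357429 (minus strand) for HLA-B, chr15:44711267-44711566 (plus strand) for B2M, chr6:32838690-32838989 (minus strand) for TAP2 and chr6:33314029-33314328 (minus strand) for TAPBP.
HLA-B: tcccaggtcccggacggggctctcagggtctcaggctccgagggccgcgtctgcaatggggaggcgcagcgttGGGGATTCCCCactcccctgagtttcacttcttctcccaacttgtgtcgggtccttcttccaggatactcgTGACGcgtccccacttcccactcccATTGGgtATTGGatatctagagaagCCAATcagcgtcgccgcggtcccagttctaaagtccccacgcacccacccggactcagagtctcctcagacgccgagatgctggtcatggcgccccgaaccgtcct
B2M: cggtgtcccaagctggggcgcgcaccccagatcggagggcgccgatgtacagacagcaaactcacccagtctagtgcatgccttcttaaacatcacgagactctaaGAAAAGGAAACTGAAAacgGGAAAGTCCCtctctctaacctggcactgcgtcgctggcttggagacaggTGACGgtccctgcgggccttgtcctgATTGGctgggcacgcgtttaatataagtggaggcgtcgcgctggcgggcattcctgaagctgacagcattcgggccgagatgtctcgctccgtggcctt
TAP2: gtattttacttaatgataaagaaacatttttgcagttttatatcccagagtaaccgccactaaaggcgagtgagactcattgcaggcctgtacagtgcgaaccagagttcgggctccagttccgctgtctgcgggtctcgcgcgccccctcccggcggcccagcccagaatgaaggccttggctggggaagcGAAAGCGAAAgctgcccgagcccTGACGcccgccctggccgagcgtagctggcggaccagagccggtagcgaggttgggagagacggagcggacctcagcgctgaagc
TAPBP: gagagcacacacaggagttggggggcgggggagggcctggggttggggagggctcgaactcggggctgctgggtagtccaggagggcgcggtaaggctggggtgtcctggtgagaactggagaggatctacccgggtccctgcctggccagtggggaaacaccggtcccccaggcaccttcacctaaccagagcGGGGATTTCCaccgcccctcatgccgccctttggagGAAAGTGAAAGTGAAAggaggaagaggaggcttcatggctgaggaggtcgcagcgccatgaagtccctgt

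The HLA-B window held an NF-kappa-B match, 1 TGACG and 3 Y boxes, with no match to the response element as spelled. The B2M window held 2 overlapping response elements, 1 NF-kappa-B match, 1 TGACG and 1 Y box. The TAP2 window had 1 response element and 1 TGACG without a Y box, and the TAPBP window had 2 overlapping response elements and 1 NF-kappa-B match without either of the other motifs. Of 35116 RefSeq promoter windows of the same length, 3.57% held the response element, 11.3% the NF-kappa-B consensus, 24.6% TGACG and 34.6% the Y box. These are letter matches, not measured binding sites.

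The libraries held 8006873 to 10895080 assigned reads each, and all 8 adrenocortical marker genes had counts. The SGPL1 count fell in KO to 43.9 to 53.8 CPM (counts scaled to library size), against 83.4 to 102 CPM in WT, while the libraries labelled OE had 81.3 to 101 CPM (KO against WT, -0.97 ± 0.14 SE on the log2 scale, adjusted p = 0.000105). Against WT, the libraries labelled OE thus showed no higher SGPL1 (log2 fold change -0.01 ± 0.14 SE, adjusted p = 0.966), and OE is used here as the label only. Fold changes moved with exon length when the libraries labelled OE were set against WT: the median was 0.298 in the shortest of 20 groups of genes and -0.384 in the longest. From shortest to longest it ran from -0.168 to 0.123 in KO against WT and from -0.433 to 0.497 in KO against OE. WT library 2 and OE library 2 stood apart within their groups on that measure. Of the 10 leukocyte markers, 7 (PTPRC, CD3E, CD3D, MS4A1, ITGAM, CD68 and TYROBP) were at 0 in all 9 libraries, and the list summed to 2.14 to 3.39 CPM in KO, 1.38 to 2.44 CPM in OE and 1.38 to 2.59 CPM in WT.

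HLA-E fell in KO and rose in the libraries labelled OE, and it was the only one of the 9 genes called in all 3 comparisons. TAP2 rose and TAPBP fell in the libraries labelled OE, while neither was called in KO. B2M and the classical heavy chains HLA-B and HLA-C were called in no comparison. A call here is an adjusted p under 0.05 over the 14150 genes tested with edgeR's quasi-likelihood test, and fold changes are on the log2 scale.

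**Figure D1:**
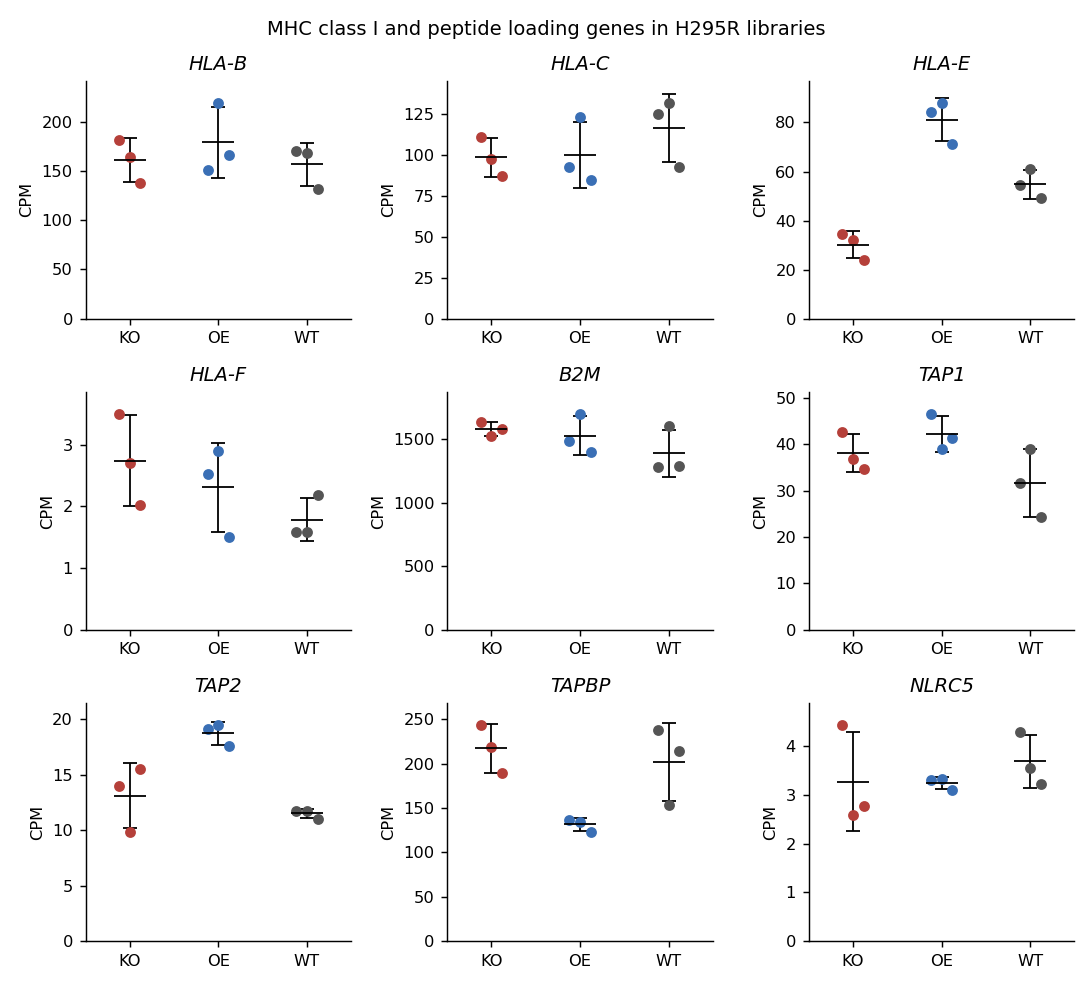
Level of each of the 9 genes in CPM (vertical axes, each from 0) in the KO, OE and WT libraries; points are single libraries, horizontal bars the mean and error bars the SD (n = 3). HLA-E separates all 3 groups, TAP2 is highest and TAPBP lowest in the libraries labelled OE, and the groups overlap for HLA-B, HLA-C, HLA-F, B2M, TAP1 and NLRC5.

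Compared per kilobase of exon, the light chain was the most abundant by far. The length used takes in all annotated exon bases of a gene (6079 for B2M and 12386 for NLRC5). It can exceed the length of the transcripts made, so the order between genes is approximate. B2M stood at 260 ± 9.42 CPM per kilobase in KO, 251 ± 25.6 in OE and 229 ± 30.2 in WT (SD, n = 3 each). HLA-B followed at 52.8 ± 7.28 in KO, 58.6 ± 11.8 in OE and 51.3 ± 7.12 in WT. In KO the next genes were TAPBP (42.9 ± 5.39) and HLA-C (39.4 ± 4.76), whose ranges over libraries overlapped each other, and that of TAPBP overlapped HLA-B. In WT the ranges of HLA-B, HLA-C (46.6 ± 8.35) and TAPBP (39.9 ± 8.62) overlapped from each to the next. In OE, HLA-C (40.0 ± 8.05) was followed by HLA-E (27.8 ± 3.00) and TAPBP (26 ± 1.47), and the last 2 overlapped.

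At the lower end the order was the same in the 3 groups. TAP1 had 7.93 ± 0.849 CPM per kilobase in KO, 8.80 ± 0.813 in OE and 6.59 ± 1.52 in WT, and its partner TAP2 had 2.06 ± 0.461 in KO, 2.94 ± 0.159 in OE and 1.80 ± 0.0640 in WT. TAP1 reached the range of HLA-E in KO, where HLA-E stood at 10.3 ± 1.87, and lay below it in WT (HLA-E 18.8 ± 2.04). HLA-F stood at 0.636 ± 0.171 in KO, 0.536 ± 0.168 in OE and 0.414 ± 0.0802 in WT. NLRC5 was lowest, at 0.264 ± 0.0820 in KO, 0.262 ± 0.00959 in OE and 0.298 ± 0.0446 in WT. No range overlapped from TAP1 to TAP2, from TAP2 to HLA-F or from HLA-F to NLRC5. The lengths include exon bases shared with other genes, 32.2% for TAP2 and 28.0% for HLA-F, so these distances are approximate.

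Of the 9 genes, 0 rose and 1 fell in KO against WT, which is 11.1% called where 18.8% of all genes tested were called (9.16% higher and 9.6% lower). In OE against WT, 2 rose and 1 fell, or 33.3%, against 20.7% of all genes (9.65% higher and 11% lower). In KO against OE, 1 was higher and 2 were lower, or 33.3%, against 39.7% of all genes (20.6% higher and 19% lower). Groups that did not overlap were found for 1 of the 9 genes in KO against WT, where 35.2% of all genes had such groups (17.6% higher and 17.6% lower). The count was 3 of 9 in OE against WT, where the share of all genes was 36.4% (17.8% higher and 18.6% lower), and 3 of 9 in KO against OE, where it was 51.7% (26.4% higher and 25.3% lower). These shares rest on 1 to 3 genes and nothing particular to the 9 genes is read from them. The median fold change of the 9 genes was 0.10 in KO against WT and 0.19 in OE against WT, where that of all genes was -0.01 in both, and it was -0.02 in KO against OE. The KO and OE comparisons share the WT libraries. Fold changes were at least 2-fold for a called gene in 1 case, HLA-E in KO against OE.

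**Figure D2:**
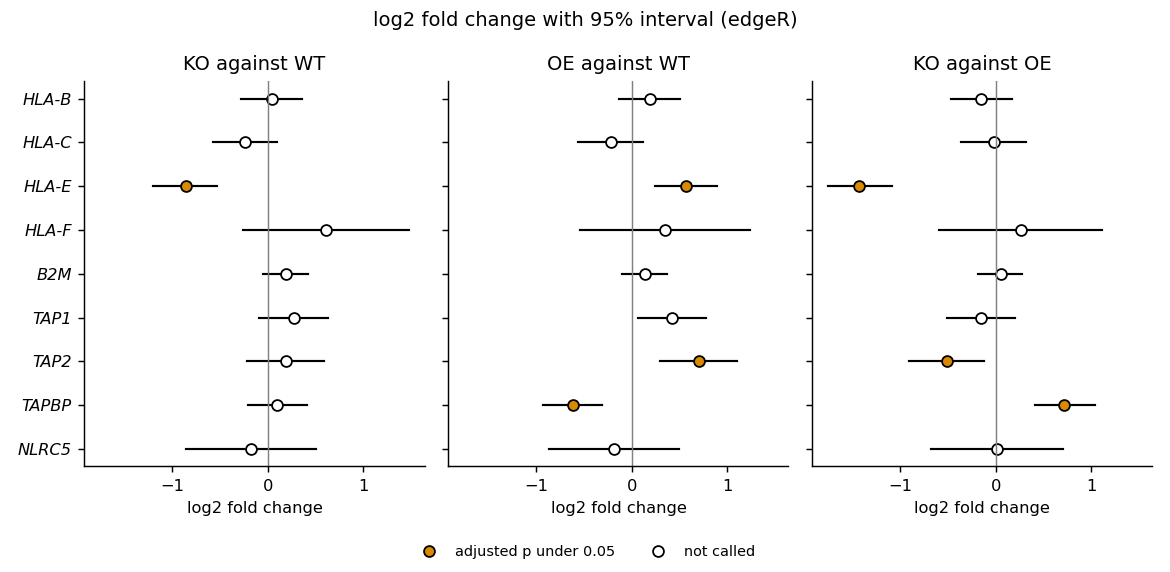
Log2 fold change of each gene (horizontal axis) with its 95% interval in KO against WT, OE against WT and KO against OE; filled points passed an adjusted p under 0.05. HLA-E lies at -0.86, 0.57 and -1.43, and TAPBP lies at -0.62 in OE against WT, on the other side of 0 from TAP2 at 0.70.

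HLA-E (ENSG00000204592, chromosome 6, 30489509 to 30494194, plus strand) encodes the heavy chain read by NK cells. Its level was 34.3, 32.1 and 24.0 CPM in the 3 KO libraries, 84.1, 88.1 and 71.3 CPM in the 3 OE libraries and 54.5, 60.9 and 49.0 CPM in the 3 WT libraries. The counts behind these were 224 to 297 in KO, 637 to 765 in OE and 426 to 498 in WT. Every KO library was below every WT library, and every OE library was above every WT library.

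Averaged, HLA-E stood at 30.1 ± 5.46 CPM in KO, 81.2 ± 8.78 CPM in OE and 54.8 ± 5.95 CPM in WT (SD, n = 3 each). It fell by 0.86 ± 0.16 (SE) in KO, to 0.550 of the WT level (95% interval -1.20 to -0.53, adjusted p = 0.000969). In the libraries labelled OE it rose by 0.57 ± 0.15, to 1.48 times the WT level (0.24 to 0.89, adjusted p = 0.017). KO stood at 0.371 of OE (-1.43 ± 0.16, adjusted p = 5.76e-06). HLA-E shared no exon base with another annotated gene, and 4.87% of its 50-base windows occurred in another transcript.

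The KO calls of HLA-E held in every alternative fit, with fold changes of -0.96 to -0.72 against WT. The OE call was lost without WT library 1 (0.56, adjusted p = 0.0651) and without WT library 3 (0.49, adjusted p = 0.0857). The 500 genes nearest to HLA-E in exon length had a median of 0.15 in OE against WT and -0.10 in KO against WT, and with counts corrected for length HLA-E stood at 0.41 (adjusted p = 0.0327) and -0.80 (adjusted p = 0.000194). In KO against OE those genes had a median of -0.25, and HLA-E corrected for length stood at -1.21 (adjusted p = 1.1e-06). The 50 tested genes around it on chromosome 6 had medians of -0.05 in KO and -0.12 in OE against WT.

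HLA-B (ENSG00000234745, chromosome 6, 31269491 to 31357188, minus strand) was called in no comparison. It had 182, 164 and 137 CPM in KO, 151, 219 and 166 CPM in OE and 170, 168 and 132 CPM in WT. The 3 groups overlapped. The difference was 0.04 ± 0.15 in KO against WT (95% interval -0.28 to 0.36, adjusted p = 0.893) and 0.19 ± 0.15 in OE against WT (-0.13 to 0.51, adjusted p = 0.403). The sign of the KO value flips with upper-quartile scaling and with library totals alone, at -0.01 in both.

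HLA-C (ENSG00000204525, chromosome 6, 31268749 to 31272130, minus strand), the other classical chain measured, had 111, 97.8 and 87.4 CPM in KO, 92.7, 123 and 85.1 CPM in OE and 125, 132 and 92.9 CPM in WT. WT library 3 lay among the KO and OE libraries, and the groups overlapped. The differences were -0.24 ± 0.16 in KO (95% interval -0.58 to 0.10, adjusted p = 0.341) and -0.22 ± 0.16 in OE (-0.56 to 0.12, adjusted p = 0.356), both against WT. With counts corrected for exon length, the OE value became -0.41 and was called (adjusted p = 0.0248). The 500 genes of like length had a median of 0.18 in that comparison.

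HLA-F (ENSG00000204642, chromosome 6, 29722775 to 29738528, plus strand) is a nonclassical heavy chain with limited surface display. It was near the floor of the data, with 13 to 30 counts per library. Its level was 3.50, 2.70 and 2.03 CPM in KO, 2.53, 2.90 and 1.5 CPM in OE and 1.58, 1.59 and 2.18 CPM in WT, and the groups overlapped. The KO difference of 0.61 ± 0.41 had a 95% interval of -0.26 to 1.48 (adjusted p = 0.342) and the OE difference was 0.35 ± 0.42 (-0.54 to 1.24, adjusted p = 0.596). At this depth neither interval excludes 0.

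Reads that fit several places or genes were left out of the counts, which bears on genes whose sequence recurs in other transcripts. Of HLA-B, 17.8% of 50-base windows occurred in another transcript, and the share was 21.6% for HLA-F and 5.70% for HLA-C. For HLA-B and HLA-F most of these windows recurred in overlapping or antisense transcripts rather than in other heavy chains. With 100-base windows the shares were 12.9% for HLA-B, 15.3% for HLA-F, 0.126% for HLA-C and 0.491% for HLA-E, and the sources used here do not state the read length. The annotated span of HLA-B reached into HLA-C, with 35 exon bases shared. Exons of other genes covered 18.9% of HLA-B and 28.0% of HLA-F, mostly on the opposite strand, which counting without strand cannot tell apart, so the levels of HLA-B and HLA-F are uncertain.

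HLA-E was also set against the classical chains of the same library, a ratio that needs no scaling between libraries and that was chosen after the values were seen. Per 100 counts of HLA-B and HLA-C together there were 11.7, 12.3 and 10.7 counts of HLA-E in KO, 34.5, 25.7 and 28.4 in OE and 18.5, 20.3 and 21.8 in WT. The 3 groups did not overlap. The means were 11.5 ± 0.816 in KO, 29.5 ± 4.51 in OE and 20.2 ± 1.68 in WT (SD, n = 3 each), or 0.572-fold in KO and 1.45-fold in OE relative to WT. An exact two-sided permutation test gave p = 0.1 for each, the smallest that 3 against 3 libraries allow, and 0.12 after Benjamini-Hochberg adjustment over 6 ratio comparisons.

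**Figure D3:**
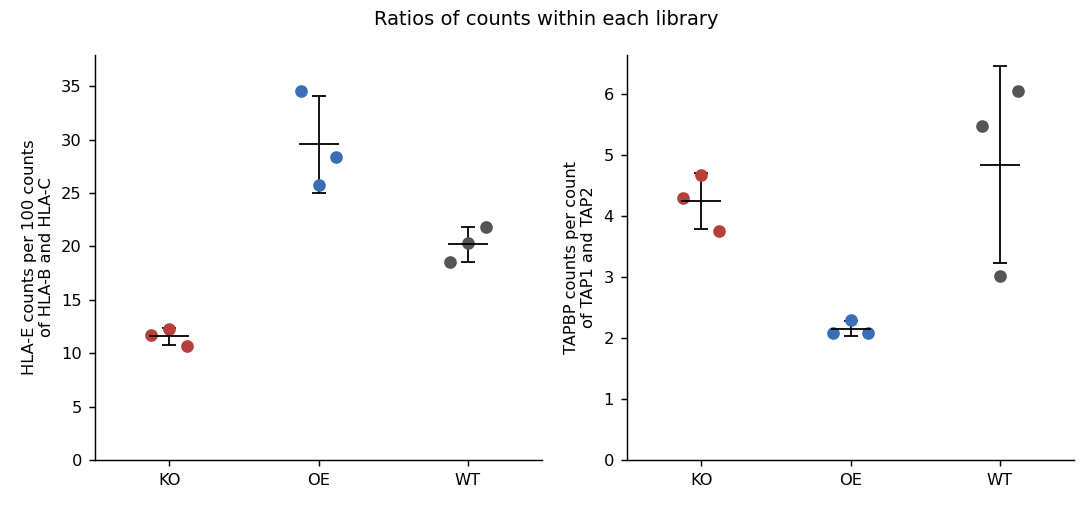
Counts of HLA-E per 100 counts of HLA-B and HLA-C (left) and of TAPBP per count of TAP1 and TAP2 (right) in each KO, OE and WT library; points are libraries, bars the mean and SD (n = 3). The HLA-E ratio is 10.7 to 12.3 in KO, 25.7 to 34.5 in OE and 18.5 to 21.8 in WT, and the TAPBP ratio is 2.08 to 2.30 in OE, below every other library.

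B2M (ENSG00000166710, chromosome 15, 44711487 to 44718877, plus strand), the light chain that every class I heavy chain needs for stable surface display, ranked 29th in KO, 48th in OE and 35th in WT by CPM among the 14150 genes tested. It had 1636, 1522 and 1584 CPM in KO, 1488, 1700 and 1398 CPM in OE and 1281, 1602 and 1286 CPM in WT. WT library 2 stood above the other two WT libraries and within the KO range. The difference was 0.19 ± 0.11 in KO against WT (95% interval -0.05 to 0.42, adjusted p = 0.281) and 0.14 ± 0.11 in OE against WT (-0.10 to 0.37, adjusted p = 0.411). Without WT library 2 and OE library 2, the KO value was 0.29 and was called (adjusted p = 0.00759).

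TAP1 (ENSG00000168394, chromosome 6, 32845209 to 32853978, minus strand), one of the transporter's subunits, had 42.6, 36.9 and 34.8 CPM in KO, 46.6, 39.0 and 41.3 CPM in OE and 31.7, 39.0 and 24.4 CPM in WT. The OE range touched that of WT through WT library 2. The difference was 0.27 ± 0.17 in KO (95% interval -0.09 to 0.63, adjusted p = 0.316) and 0.42 ± 0.17 in OE (0.06 to 0.78, adjusted p = 0.0907), both against WT. Without WT library 2 the OE value was 0.61 and was called (adjusted p = 0.0167), and it was 0.66 with OE library 2 left out as well (adjusted p = 0.00924).

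TAP2 (ENSG00000204267, chromosome 6, 32821833 to 32838770, minus strand), the other subunit, had 14, 9.83 and 15.5 CPM in KO, 19.1, 19.5 and 17.6 CPM in OE and 11.8, 11.7 and 11.0 CPM in WT. Every OE library was above every KO and WT library, while the KO libraries spread on both sides of WT. TAP2 rose by 0.70 ± 0.19 in OE, to 1.63 times WT (95% interval 0.30 to 1.1, adjusted p = 0.0165). It was 0.19 ± 0.19 in KO against WT (-0.22 to 0.59, adjusted p = 0.56), and KO stood at 0.701 of OE (-0.51 ± 0.19, adjusted p = 0.0385).

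The OE call of TAP2 was lost without WT library 1 (0.72, adjusted p = 0.0545) and without WT library 3 (0.67, adjusted p = 0.0666). The KO against OE call was lost without KO library 1 (adjusted p = 0.0542), KO library 2 (-0.34, adjusted p = 0.201), OE library 1 (adjusted p = 0.0819), OE library 2 (adjusted p = 0.0692) or OE library 3 (adjusted p = 0.0576), and with library totals alone (-0.45, adjusted p = 0.0702) or no filter (-0.52, adjusted p = 0.0716). Genes of like exon length had a median of -0.08 in OE against WT. TAP2 shared 32.2% of its exon bases with an overlapping gene on the same strand (ENSG00000250264), whose reads in those exons were not assigned to either, so the TAP2 level is uncertain. The 50 genes around TAP2 on chromosome 6 had a median of 0.24 in OE against WT.

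TAPBP (ENSG00000231925, chromosome 6, 33299694 to 33314387, minus strand) encodes tapasin, which bridges the transporter and empty class I molecules and edits their peptides. It had 244, 218 and 189 CPM in KO, 137, 135 and 123 CPM in OE and 238, 154 and 214 CPM in WT. Every OE library was below every KO and WT library, and WT library 2 was the lowest of WT. TAPBP averaged 217 ± 27.3 CPM in KO, 132 ± 7.45 CPM in OE and 202 ± 43.6 CPM in WT (SD, n = 3 each).

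TAPBP fell by 0.62 ± 0.15 in OE, to 0.651 of WT (95% interval -0.93 to -0.31, adjusted p = 0.00876), and was 1.65 times higher in KO than in OE (0.72 ± 0.15, adjusted p = 0.00114). Its KO difference from WT was 0.10 ± 0.15 (-0.21 to 0.41, adjusted p = 0.686), and -0.06 without WT library 2. The OE call was lost without WT library 1 (-0.48, adjusted p = 0.0648) and held without WT library 2 and OE library 2 (-0.78, adjusted p = 0.000234). The 50 genes around TAPBP had a median of 0.18 in OE against WT, and genes of like exon length a median of -0.05. No exon base of TAPBP was shared with another gene.

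Tapasin was set against the transporter of the same library in a ratio chosen after the values were seen, so it restates values given above without scaling between libraries. Most transporter counts were of TAP1, which was called in no comparison: OE library 1 had 424 of TAP1 and 174 of TAP2, and WT library 1 had 280 and 104. There were 4.30, 4.68 and 3.76 counts of TAPBP per count of TAP1 and TAP2 in KO, 2.08, 2.30 and 2.09 in OE and 5.48, 3.02 and 6.05 in WT. Every OE library was below every other library, and WT library 2 was apart from the other two WT libraries. OE stood at 0.464-fold of WT and KO at 1.96-fold of OE, each at p = 0.1 in the exact two-sided permutation test, the smallest that 3 against 3 libraries allow (0.12 after adjustment over the 6 ratio comparisons), while KO stood at 0.911-fold of WT (exact permutation p = 0.7).

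NLRC5 (ENSG00000140853, chromosome 16, 56989485 to 57083531, plus strand), the class I transactivator, had 24 to 38 counts per library. Its level was 4.44, 2.59 and 2.78 CPM in KO, 3.30, 3.32 and 3.10 CPM in OE and 4.30, 3.55 and 3.22 CPM in WT, with the groups overlapping. The differences were -0.18 ± 0.32 in KO (95% interval -0.86 to 0.50, adjusted p = 0.761) and -0.19 ± 0.32 in OE (-0.87 to 0.49, adjusted p = 0.721), both against WT. With the length correction the OE value changed sign, to 0.13.

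**Figure D4:**
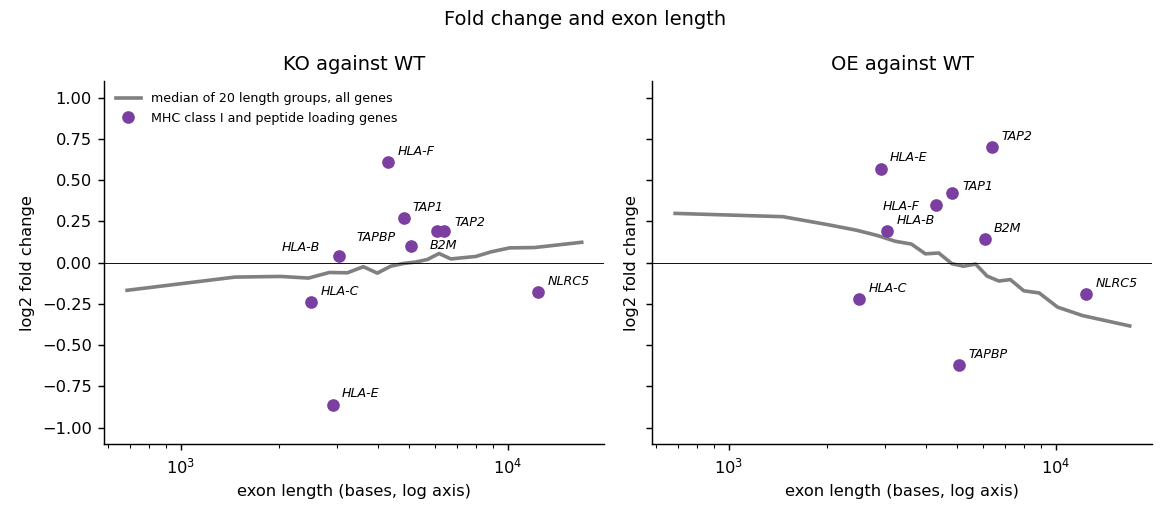
Log2 fold change of the 9 genes (points) against exon length in bases (log axis) in KO against WT (left) and OE against WT (right); the grey line joins the medians of 20 groups of all genes ordered by length. The line falls from 0.298 to -0.384 in OE against WT, with TAP2 at 0.70 above it and TAPBP at -0.62 below it at like lengths.

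The members on chromosome 6 lie between 29722775 and 33314387, and 78 other tested genes there were in none of the gene lists used. In KO against WT their median was -0.06, and 2 of the 78 rose while 3 fell. In OE against WT their median was 0.16, and 8 rose while 6 fell. Of all genes tested, 18.8% were called in KO and 20.7% in OE.

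The rest of the peptide loading pathway changed in single genes. Of 7 other loading and trimming genes, 1 rose and 1 fell in KO against WT (median 0.12), and 0 rose and 2 fell in OE against WT (median -0.12). The share called over all genes tested was 18.8% in KO and 20.7% in OE. CANX, the chaperone calnexin that helps heavy chains fold, fell in KO to 780, 803 and 888 CPM, against 1475, 1523 and 1583 CPM in WT, and had 1582, 1359 and 1596 CPM in OE. No KO library reached the other groups. Its KO fold change was -0.89 ± 0.10 (adjusted p = 1.18e-05), and the 45 tested genes around it on chromosome 5 had a median of -1.01 in that comparison, so CANX moved with its neighbours.

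TAPBPL, a tapasin-related peptide editor that works apart from the transporter, rose in KO to 27.2, 24.0 and 19.6 CPM, against 15.7, 14.6 and 13.3 CPM in WT (0.70 ± 0.17, adjusted p = 0.0091). It had 12.5, 14 and 13.7 CPM in OE, overlapping WT. Its 50 neighbours on chromosome 12 had a median of 0.37 in KO against WT.

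Of the 3 peptide-trimming aminopeptidases on that list, 2 fell in the libraries labelled OE. ERAP2, which trims peptides inside the endoplasmic reticulum, had 37.5, 36.1 and 44.9 CPM in OE, against 65.2, 68.3 and 72.0 CPM in WT (-0.79 ± 0.15, adjusted p = 0.00227), and 51.5, 67.9 and 72.0 CPM in KO. LNPEP, which trims peptides in endosomes, had 53.2, 37.8 and 43.0 CPM in OE, against 71.3, 72.9 and 90.6 CPM in WT (-0.81 ± 0.17, adjusted p = 0.00446). LNPEP has 14966 exon bases, and genes of like length had a median of -0.33; with the length correction it stood at -0.44 (adjusted p = 0.0261). The third, ERAP1, stood at -0.44 in OE against WT (adjusted p = 0.0979). The 3 genes lie close together on chromosome 5, between 96760810 and 97037513. In OE against WT the 50 tested genes around ERAP1, ERAP2 and LNPEP had medians of -0.17, -0.15 and -0.13.

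The chaperone CALR, which binds heavy chains in the loading complex, was close to level, at 0.12 ± 0.11 in KO (95% interval -0.11 to 0.34, adjusted p = 0.497) and 0.14 ± 0.11 in OE (-0.08 to 0.36, adjusted p = 0.362), both against WT. PDIA3, the disulfide isomerase of that complex, stood at 0.06 ± 0.10 in KO (-0.16 to 0.28, adjusted p = 0.752) and 0.08 ± 0.10 in OE (-0.14 to 0.30, adjusted p = 0.615). Neither passed the test.

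Among 5 immunoproteasome and activator genes, which shape the peptide supply, 0 were called in KO (median 0.12) and 1 rose in OE (median 0.36), both against WT. The share called over all genes tested was 18.8% in KO and 20.7% in OE. The gene that rose was PSME2, a subunit of the proteasome activator PA28, with 282, 373 and 277 CPM in OE, against 198, 238 and 178 CPM in WT (0.60 ± 0.14, adjusted p = 0.00752), and 209, 178 and 177 CPM in KO. Its partner subunit PSME1 stood at -0.05 ± 0.15 in OE (adjusted p = 0.848). The catalytic subunits PSMB8 and PSMB9 stood at 0.36 (adjusted p = 0.161) and 0.18 (adjusted p = 0.514) in OE, and PSMB10, with 7 to 30 counts per library, at 1.18 (adjusted p = 0.0724).

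**Figure D5:**
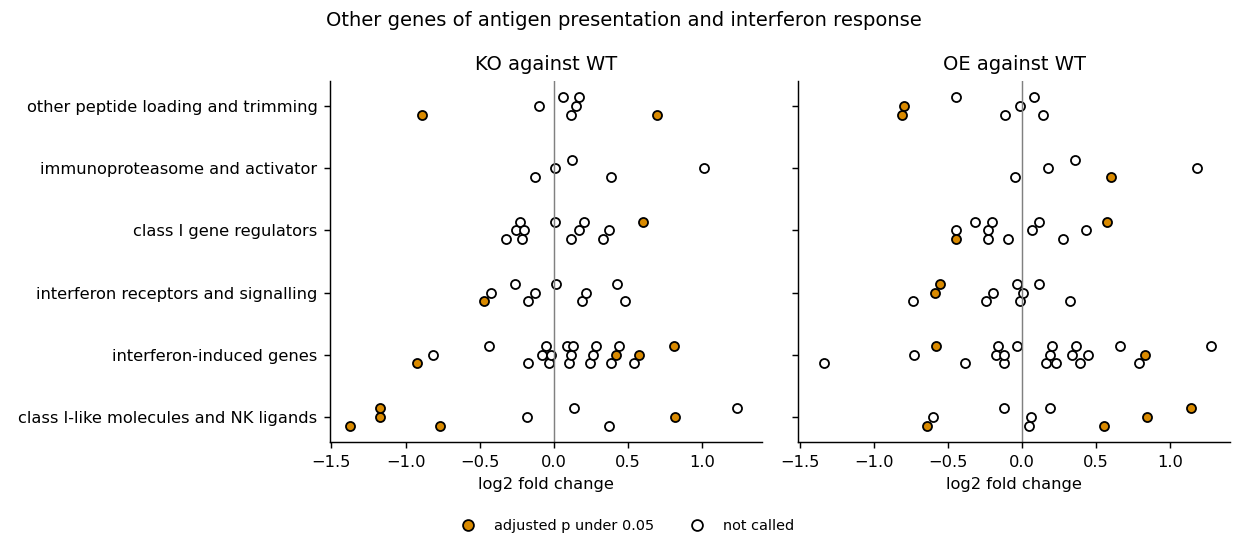
Log2 fold change (horizontal axis) of each tested gene in 6 lists of related genes in KO against WT (left) and OE against WT (right); filled points passed an adjusted p under 0.05, and the vertical scatter within a list has no meaning. MX2 is not drawn, because it had 2 counts in all WT libraries together. Class I-like molecules and NK ligands had 5 of 9 genes called in KO, where 18.8% of all genes tested were called. In the other lists, and in OE, where 20.7% of all genes were called, most genes were not called.

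Of 12 tested class I gene regulators, 1 rose in KO (NFKB1, a subunit of NF-kappa-B, 0.60 ± 0.17, adjusted p = 0.0234; median 0.06). In OE 1 rose and 1 fell (median -0.15): RFXANK, a subunit of the RFX factor, at 0.57 ± 0.17 (adjusted p = 0.0247), and NFYA, a subunit of NF-Y, at -0.44 ± 0.15 (adjusted p = 0.0404). None of these 3 calls held without each single library in turn. The share called over all genes tested was 18.8% in KO and 20.7% in OE. NFKB1 lost its call without WT library 1 (adjusted p = 0.0502), WT library 2 (0.0926), KO library 2 (0.077) or KO library 3 (0.0635). RFXANK lost it without WT library 1 (adjusted p = 0.109), WT library 3 (0.0974), OE library 2 (0.0832) or OE library 3 (0.0611). NFYA lost it without WT library 1 (adjusted p = 0.133), WT library 3 (0.15), KO library 2 (0.0666), OE library 1 (0.0707) or OE library 2 (0.154). The calls also ended with library totals alone for NFKB1 (adjusted p = 0.0557) and RFXANK (0.0616), with the length correction for RFXANK (0.0554), and with no filter (0.0611) or only the OE and WT libraries fitted (0.0574) for NFYA.

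Of 10 tested interferon receptor and signalling genes, 0 rose and 1 fell in KO (median -0.06), and 0 rose and 2 fell in OE (median -0.11), where 18.8% of all genes were called in KO and 20.7% in OE. STAT2, which carries the type I interferon signal, fell in OE by 0.59 ± 0.14 (adjusted p = 0.00987; 0.0504 without WT library 3). JAK1, the kinase on several interferon receptors, stood at -0.56 ± 0.15 in OE (adjusted p = 0.0182), and at -0.22 with the length correction (adjusted p = 0.178); without WT library 1, WT library 3 or OE library 2 its adjusted p was 0.0765, 0.104 and 0.0763. IFNGR1, a chain of the interferon-gamma receptor, stood at -0.47 ± 0.15 in KO (adjusted p = 0.0358) and lost its call without any 1 of WT libraries 1, 2 and 3 (adjusted p = 0.0641, 0.0988 and 0.0581), KO libraries 1 and 2 (0.0854 and 0.195) or OE library 3 (0.0515), and with no filter (0.0648).

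Of 22 tested interferon-induced genes, 4 rose and 1 fell in KO (median 0.12), and 1 rose and 1 fell in OE (median 0.20), both against WT. The share called over all genes tested was 18.8% in KO and 20.7% in OE. OAS1, which makes the activator of RNase L, rose in both. It had 20.6, 23.3 and 26.6 CPM in KO, 22, 28.1 and 21.9 CPM in OE and 13.6, 14.4 and 12.3 CPM in WT, a change of 0.81 ± 0.17 in KO (adjusted p = 0.00329) and 0.83 ± 0.17 in OE (adjusted p = 0.00405). MX2, an antiviral GTPase, had 58 counts over the 3 KO libraries and 2 over the 3 WT libraries, a ratio of 27.4 with a 95% interval for counting error of 7.26 to 232. That interval pools the libraries and leaves out the spread between them. MX2 had at most 0.24 CPM in a WT library and 0.22 CPM in an OE library. It passed the low-count filter only through KO, so nothing is read from its place among the 4 genes that rose. SAMHD1, a nucleotide hydrolase, fell in OE by 0.58 ± 0.12 (adjusted p = 0.00427), or by 0.30 with the length correction (adjusted p = 0.047). The other 3 calls in KO, named after their values were seen, were GBP1 (0.57, adjusted p = 0.0187), IFIT1 (0.42, adjusted p = 0.0476) and ISG20 (-0.92, adjusted p = 0.0375). GBP1 lost its call without WT library 1 (adjusted p = 0.0503), WT library 2 (0.0713) or KO library 3 (0.0845), and ISG20 without WT library 2 (0.177), KO library 2 (0.167) or KO library 3 (0.103). IFIT1 lost it without any 1 library other than OE library 2, with adjusted p values of 0.0603 to 0.183, and under every other scaling (0.0528 to 0.0921), with no filter (0.114) and with only the KO and WT libraries fitted (0.0652).

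Class I-like molecules and NK ligands had 1 higher and 4 lower of 9 tested in KO (median -0.18) and 3 higher and 1 lower in OE (median 0.06), both against WT. The share called over all genes tested was 18.8% in KO and 20.7% in OE, and the list was chosen with earlier results known. The 4 calls in OE were ULBP2 and, named after their values were seen, MICA (0.55, adjusted p = 0.0459), PROCR (0.85, adjusted p = 0.0317) and HFE (-0.64, adjusted p = 0.04665). All 4 were lost without WT library 3 (adjusted p of 0.098 to 0.208) and without OE library 2 (0.0631 to 0.188). The length correction also ended the calls of HFE (0.0572) and PROCR (0.0956), and library totals alone those of MICA (0.0958) and PROCR (0.0545). Of 20 alternative fits, 17 kept the OE call of ULBP2, 13 that of PROCR, 12 that of MICA and 8 that of HFE. HFE was also lower in KO (-0.77, adjusted p = 0.0209). That call was lost without WT library 1 (adjusted p = 0.0699), WT library 3 (0.0625), KO library 2 (0.107) or KO library 3 (0.0594). The ULBP proteins are stress-induced ligands of the activating NK receptor NKG2D. MICA and MICB, on the same list, did not fall with them in KO against WT. They stood at 0.14 (adjusted p = 0.68) and 1.24 (adjusted p = 0.119), and neither was called. ULBP3 had 8.64, 8.64 and 11.3 CPM in KO, 25.9, 25.5 and 22.5 CPM in OE and 21.5, 21.6 and 21.6 CPM in WT. KO lay below both other groups, and ULBP3 fell in KO by 1.17 ± 0.17 (adjusted p = 0.000125) while its OE difference was 0.19 ± 0.16 (adjusted p = 0.44).

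ULBP2 had 1.64, 1.19 and 1.93 CPM in KO, 5.94, 9.40 and 8.46 CPM in OE and 4.07, 4.4 and 2.30 CPM in WT. The groups did not overlap, and the order was that of HLA-E. It fell in KO by 1.17 ± 0.36 (adjusted p = 0.0319) and rose in OE by 1.14 ± 0.32 (adjusted p = 0.0182). The KO call was lost with limma-voom (adjusted p = 0.0811), with only the KO and WT libraries fitted (0.0506), and without WT library 1 (0.105), WT library 2 (0.103), KO library 1 (0.0643) or KO library 2 (0.129), and the OE call without WT library 3 (0.098), OE library 2 (0.0631) or OE library 3 (0.0586).

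ULBP1 had 1.40, 1.41 and 1.93 CPM in KO, 2.53, 1.94 and 3.57 CPM in OE and 2.94, 3.79 and 5.64 CPM in WT. It fell in KO by 1.38 ± 0.39 (adjusted p = 0.0204), a call lost without WT library 3 (adjusted p = 0.108), KO library 1 (0.0614) or KO library 2 (0.0779). MR1, the class I-like chain that presents vitamin B metabolites and pairs with B2M, rose in KO to 29.6, 31.3 and 34.0 CPM, against 17.0, 18.8 and 18.2 CPM in WT (0.81 ± 0.16, adjusted p = 0.00181). Its 50 neighbours on chromosome 1 had a median of 0.68 in that comparison, where the 50 neighbours of each ULBP gene had a median of 0.10.

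MHC class II genes, which serve antigen presentation by specialised cells, were at or near the floor: 1 of 12 (HLA-DMA) was tested, 3 were at 0 in all libraries, and the highest count of any was 25. HLA-DMA had 4 to 25 counts per library and stood at -0.17 ± 0.61 in KO and 0.46 ± 0.59 in OE against WT (adjusted p = 0.889 and 0.626). Epithelial markers summed to 14.8 to 18.1 CPM in KO, 30.3 to 34.8 CPM in OE and 27.4 to 31.6 CPM in WT. This sum, lower in KO as HLA-E was, was mostly EPCAM (90, 118 and 119 counts in KO, 205, 230 and 215 in WT). KRT18 overlapped between the groups. Fibroblast markers summed to 51.1 to 58.2 CPM in KO, 35.8 to 43.5 CPM in OE and 48.5 to 57.8 CPM in WT. That sum, lower in OE as TAPBP was, was mostly FAP. COL3A1 was lower in both KO (32 to 36 counts) and OE (19 to 49) than in WT (67 to 126). PDGFRB was higher in KO (10 to 24) than in WT (0 to 2). Adrenocortical markers summed to 1920 to 2350 CPM in KO, 1980 to 2350 CPM in OE and 1610 to 1790 CPM in WT. That sum was mostly NR5A1, STAR and CYP11A1. CYP21A2 had 2537 to 3162 counts in OE and 757 to 937 in WT. INHA (104 to 148) and NR0B1 (125 to 156) were higher in KO than in WT (39 to 53 and 29 to 53). Of the 8 genes, 3 rose and 0 fell in KO, and 2 rose and 0 fell in OE. The share called over all genes tested was 18.8% in KO and 20.7% in OE. What part these markers had in the HLA-E and TAPBP results was not tested. In a bulk sample, fewer cells of a type and less RNA per cell cannot be told apart.

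The 12249 other protein-coding genes tested were ranked by how closely they followed the mean profile of the 4 heavy chains or that of B2M. A profile is log2 CPM over the 9 libraries, centred on its mean. The nearest to the mean of the 4 heavy chains were COQ4 (root mean square difference 0.055), E2F1 (0.0583), FLOT1 (0.0753), GLRX5 (0.0766) and CDC20 (0.0785), where the median over all genes was 0.378. That mean joins unlike profiles: in the 3 KO libraries HLA-E stood at -0.563, -0.661 and -1.079, and HLA-F at 0.621, 0.271 and -0.104. Nearness to it does not show that a gene followed any single heavy chain. FLOT1 lies in the same region of chromosome 6. The nearest to B2M were CLNS1A (0.0545), FDPS (0.059), MAD2L1 (0.0621), ZWINT (0.0635) and SNRNP40 (0.066), with a median of 0.336 over all genes.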

How the data were processed

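Raw gene counts were measured in 9 H295R libraries by poly-A RNA sequencing. The authors deposited, per the file headers, whole-number read counts per gene made with featureCounts 1.5.2 on the Ensembl release 101 annotation of GRCh38, with no strand or multi-mapping option set. The submitters' processing notes name FastQC, HISAT2 1.03, Subread, featureCounts 0.1.0 and DESeq2. Read length and pairing are not stated there.

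The counts were fitted with edgeR 4.0.16 (R 4.3.3; TMM factors, low counts removed by filterByExpr at a minimum of 10, 1 quasi-likelihood fit over all 9 libraries), and p-values were Benjamini-Hochberg adjusted over the 14150 genes tested. CPM were computed from the counts and the TMM-scaled library sizes. Library totals were 8006873 to 10895080, and the median SE of a KO against WT fold change was 0.187. Named genes were all members, SGPL1, all tested genes of the loading and proteasome lists, and up to 4 genes of each other list with the smallest adjusted p in any comparison; some genes this rule takes are not reported here. The members and lists were chosen with earlier results of these data known. Promoter windows came from RefSeq (GRCh38.p14). Alternatives were other scalings, no filter, DESeq2 1.42.0, limma-voom (limma 3.58.1), 2 groups at a time, a replicate block, an exon length correction, leaving out libraries, and ratios of counts within a library.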

Additional observations from a re-analysis of the deposited data

How the results depend on the processing

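HLA-E in KO against WT and in KO against OE, and TAPBP in KO against OE, kept their calls in all alternative fits. In KO against WT, 0 genes of the 9 were called higher and 1 lower, except for 1 higher without WT library 2 and OE library 2 together. Leaving out single libraries gave 0 to 0 higher and 1 to 1 lower members, and 1764 (without KO library 2) to 3214 genes called, where the full set gave 2655. In OE against WT, leaving out single libraries gave 0 to 3 higher and 0 to 1 lower members and 1244 to 3673 genes called, where the full set gave 2, 1 and 2924; the higher count was 0 without WT library 1 or 3, the lower count was 0 without WT library 1, and genes called were 1381 without WT library 1, 1244 without WT library 3 and 1849 without OE library 2. The length correction, alone or with the replicate block, gave 2 lower members in OE against WT, by adding HLA-C. In KO against OE, 1 member rather than 2 was lower with library totals alone, with no filter and without WT library 2 and OE library 2, in each case by the loss of TAP2, and leaving out single libraries gave 1 to 2 lower, 1 to 1 higher and 4375 to 5903 genes called, where the full set gave 5612.

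Samples with the same replicate number did not deviate together in every pair (correlations of -0.138 to 0.246 over genes), so the numbers were not taken as pairs. With the number as a replicate block, KO against WT gave 0 higher and 1 lower members and 3235 genes, OE against WT 3 higher, 1 lower and 3757 genes (TAP1 added, adjusted p = 0.0453), and KO against OE 1 higher, 2 lower and 6135 genes.

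Signs that turned all belonged to members that were not called. In KO against WT, HLA-B was -0.01 with upper-quartile scaling and with library totals alone, -0.07 without WT library 3 and -0.05 without KO library 1, and TAPBP was -0.06 without WT library 2, alone or with OE library 2. In OE against WT, NLRC5 was 0.13 with the length correction and 0.15 with the block added. In KO against OE, NLRC5 was -0.00 with RLE scaling, DESeq2 or only the 2 groups, -0.05 with upper-quartile scaling, -0.03 with limma-voom, -0.01 with the block, -0.41 with the length correction, -0.44 with both, and -0.01 without WT library 2, -0.27 without KO library 1 and -0.02 without OE library 3. There B2M was -0.02 with upper-quartile scaling, -0.05 with the length correction, -0.04 with both and -0.01 without OE library 3. HLA-C was 0.06 with library totals alone and without KO library 3, 0.25 with the length correction with or without the block, and 0.13 without OE library 2, alone or with WT library 2; HLA-B was 0.06, 0.05 and 0.00 under the length correction, both, and without OE library 2. Over single libraries left out, the range was -0.06 to 0.24 for TAPBP in KO against WT, -0.07 to 0.15 for HLA-B there, and in KO against OE -0.27 to 0.15 for NLRC5, -0.26 to 0.00 for HLA-B, -0.13 to 0.13 for HLA-C and -0.01 to 0.11 for B2M. The cause was not tested. Library totals alone moved the median of all genes in OE against WT to -0.129. With 13 to 38 counts per library, HLA-F and NLRC5 are limited by depth.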
